A study of Mus musculus with 8 samples.

Results

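Endothelial cells line the inner face of blood and lymphatic vessels, and the genes that mark them were followed here in mammary tumors treated with calcipotriol, a vitamin D analog, or with its solvent EtOH. A list of 40 genes was used, of which 3 (Prox1, Lyve1 and Pdpn) are markers of lymphatic endothelium. The other 37 are markers of blood-vessel endothelium or ligands that act on it, and are called blood-vessel genes here. Whether lymphatic endothelium makes them too was not examined. The genes were chosen by name as known endothelial identity genes, with earlier results of these data known. Shares of the list set beside those of all genes are therefore descriptions. All 40 were found among the 55414 Ensembl gene identifiers of the count table. The tumors were grown by orthotopic injection of the PyMt cell line, which was established from a tumor of a C57BL/6 mouse that carried the MMTV-PyMt transgene, into WT female C57BL/6 mice. Recipients were 6 to 8 weeks old in the tumor growth experiment of this design. Calcipotriol was applied topically at 20 nmol in EtOH every 2 days, starting 2 days after implantation, and the tumors were collected 24 hours after the final dose. The control mice received EtOH alone on the same schedule. RNA-Seq was carried out on 4 tumors of each group. The groups share the tumor line, a cell line from a tumor in which the MMTV promoter drives the PyMt oncogene in mammary epithelium, so all tumor cells descend from the same source. The labels name the cell type as epithelial, whereas the RNA came from whole tumors, in which vessels are expected to come from the host. Of 8 epithelial genes, the keratins Krt8 and Krt18 were abundant, at 523 to 652 and 462 to 665 CPM with EtOH and at 285 to 516 and 260 to 348 CPM with calcipotriol, whereas Epcam was at 0 to 22.7 CPM over the 8 tumors and was at 0 in EtOH replicates 1 and 2.

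Blood-vessel endothelium is held together by VE-cadherin (Cdh5), PECAM-1 (Pecam1) and claudin-5 (Cldn5), and its identity is kept by ETS factors such as ERG and FLI1 and by the SOX7, SOX17 and SOX18 group. Angiopoietin 1, which is made largely by perivascular cells, activates the receptor TIE2 (Tek) and steadies vessels, whereas angiopoietin 2 is released by endothelial cells of vessels under remodeling and can oppose it. PROX1 is the transcription factor that sets lymphatic identity, and LYVE-1 and podoplanin mark the lymphatic surface but are also made by some macrophages and by fibroblasts or epithelial cells, respectively. Several other genes of the list are shared with blood cells, among them Fli1, Lyl1, Tal1, Cd34, Eng and Selp, and this naming is not complete.

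Endothelial promoters are known to hold binding sites of ETS factors, so the sequence just upstream of the genes was examined. RefSeq promoters (GRCm38.p6) were at hand for 20 of the 40 genes, with 26 start sites. In the 250 bases upstream of the start, the letters CAGGAAG, a form of the ETS core searched on both strands like all motifs here, were present in 9 of the 26 promoters (34.6%) and in 10.8% of all 32851 promoters. A second form, CCGGAAG, was present in 3.85% against 6.91%, and at least 1 of these forms in 10 promoters (38.5%) against 17.0%. A core of SOX sites, AACAAT, was present in 11.5% of these promoters against 9.42% of all. For GATA factors, which act in blood and vessel cells, the letters AGATAA were present in 7.69% against 9.99%. Among the 6 of these genes that passed the thresholds described below, 2 promoters (Rasip1 and Robo4) held CAGGAAG. These are descriptions of letters and not of bound sites. Shown are the 200 bases upstream of the outermost annotated start of Rasip1, with its match in capitals (on the opposite strand), and of Clec14a and Esm1, the tested genes with the lowest fitted fold changes of the list, which hold none of the 4 motifs in this window. They were chosen after the values were seen, and are written 5′ to 3′ on the strand of the gene.
Rasip1 (chr7:45627288-45627487, forward strand): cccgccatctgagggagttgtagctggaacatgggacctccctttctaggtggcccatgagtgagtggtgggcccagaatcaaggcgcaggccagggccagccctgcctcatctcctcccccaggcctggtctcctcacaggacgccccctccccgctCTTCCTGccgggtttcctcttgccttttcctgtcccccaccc
Clec14a (chr12:58269291-58269490, reverse strand): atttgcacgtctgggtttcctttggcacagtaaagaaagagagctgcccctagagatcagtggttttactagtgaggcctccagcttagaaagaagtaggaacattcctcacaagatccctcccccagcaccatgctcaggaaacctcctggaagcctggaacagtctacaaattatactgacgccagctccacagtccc
Esm1 (chr13:113209459-113209658, forward strand): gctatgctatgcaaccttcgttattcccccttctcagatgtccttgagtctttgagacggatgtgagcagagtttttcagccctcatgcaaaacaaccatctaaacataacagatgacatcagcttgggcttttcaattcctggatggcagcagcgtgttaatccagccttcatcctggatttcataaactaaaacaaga

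The library totals were 20908411 to 25084713 counts with EtOH and 19685419 to 24673432 counts with calcipotriol. Levels are given in CPM, which are counts relative to the size of the library after TMM scaling, and a change is the log2 fold change of calcipotriol over EtOH with its standard error from edgeR's quasi-likelihood test. A gene passed the thresholds when its Benjamini-Hochberg adjusted p over all 14458 genes tested was under 0.05 and its log2 fold change was at least 1 in size. Nothing in the labels says how the RNA-Seq tumors were batched. The EtOH-treated tumors fell into 2 pairs that the labels do not explain. Replicates 1 and 2 had 5.64 and 5.31 summed CPM over 8 skeletal muscle genes, and replicates 3 and 4 had 49.2 and 56.7. With calcipotriol this sum was 2.3 to 9.13 CPM. The sum of 8 adipocyte genes was 29.6 and 34.7 CPM in EtOH replicates 1 and 2 and 66.3 and 74.7 CPM in replicates 3 and 4. With calcipotriol the adipocyte sum was 19.2 to 44.2 CPM. The sum of 9 fibroblast genes, at 4867 to 5396 CPM with EtOH, did not show the pairs, but single genes in it split in opposite directions. Col3a1 made up most of the sum. It was at 4165 and 3825 CPM in EtOH replicates 1 and 2 and at 2836 and 2577 CPM in replicates 3 and 4. Col1a1 was at 303 and 271 CPM in the first pair and at 1155 and 1040 CPM in the second. Most of the tested blood-vessel genes also split by these pairs, a count for which the share of all genes was not computed. Of the 36, 27 were higher in both EtOH replicates 1 and 2 than in replicates 3 and 4, and 4 were lower. Results are therefore also given without either pair, an alternative chosen after the data were seen. In such bulk RNA, fewer endothelial cells and less RNA per cell cannot be told apart.

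Genes of blood-vessel endothelium were lower in calcipotriol-treated tumors. Of the 40 genes, 38 had enough counts to be tested, and 15 of them were lower past both thresholds, where 0.948% of all genes tested were lower by the same criteria. These 15 were Pecam1, Esam, Clec14a, Robo4, Mmrn2, Tie1, Ptprb, Sox18, S1pr1, Adgrl4, Rasip1, Nos3, Plvap, Vwf and Esm1, all of them blood-vessel genes. No gene of the list was higher past both thresholds with edgeR, DESeq2 or limma-voom, and none was higher at an unadjusted p under 0.05 in edgeR, whereas 1.07% of all genes tested were higher past both thresholds. The other 23 tested genes did not pass. The median log2 fold change of the 36 tested blood-vessel genes was -1.40, a level at 37.9% of that with EtOH, and 34 of them had a fold change below 0, against a median of 0.02 over all genes and 47.9% of genes below 0. In 23 genes every calcipotriol-treated tumor was below every EtOH-treated tumor, where 6.16% of all genes tested were separated in this direction, and in 0 every calcipotriol-treated tumor was above (6.32% of all genes). The log2 fold change was at or below -1 in 26 genes of the list (4.79% of all genes), and 29 were lower at an unadjusted p under 0.05 in edgeR (9.84%). Without the fold change minimum the same number, 15, was lower (1.37% of all genes).

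**Figure D1:**
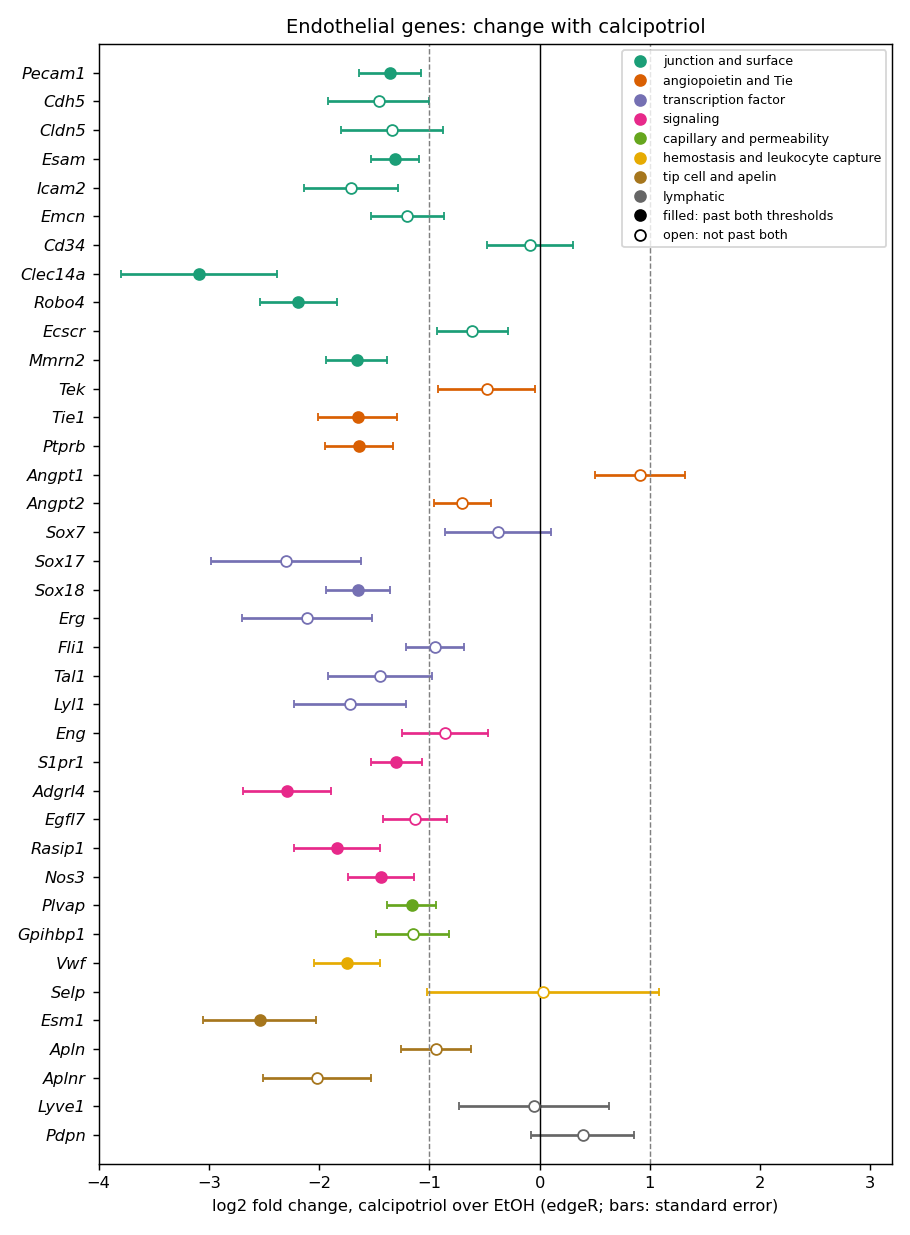
Log2 fold change (calcipotriol over EtOH, x axis) of the 38 tested genes of the list, with bars for the standard error from edgeR. Filled points are the 15 genes past both thresholds, all to the left of -1. Angpt1, Pdpn and, at 0.03, Selp lie to the right of 0 with open points.

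The size of this difference depended on the EtOH-treated tumors used. Without EtOH replicates 1 and 2, the median log2 fold change of the blood-vessel genes was -0.92, 33 of 36 remained below 0, and Vwf alone was lower past both thresholds (0.411% of all genes were lower in that fit). Without EtOH replicates 3 and 4 the median was -1.69 and 24 genes of the list were lower (1.8% of all genes). Without calcipotriol replicate 1, 21 genes were lower (2.7% of all genes). In the separate fits without EtOH replicate 1, EtOH replicate 2 or calcipotriol replicate 5, 6 or 7, only 3 or 4 were lower (0.291% to 0.351% of all genes). Without EtOH replicate 3 or 4 they were 16 (0.572%) and 14 (0.78%). DESeq2 called 25 genes (2.21% of all genes) and limma-voom 11 (1.03%). With RLE or upper-quartile factors 15 were lower (0.934% and 0.844%), with library totals 13 (0.65%), without the low-count filter 22 of 40 (0.888%), and with at least 10 counts in every tumor 17 of 34 (1.28%). In direction the genes were steadier, since 33 to 35 blood-vessel genes were below 0 in each of these fits, except that with the minimum of 10 counts, where 31 of the 32 tested were. EtOH replicates 3 and 4 were both above every calcipotriol-treated tumor in 24 of the 36 genes, and replicates 1 and 2 in 29. For these 2 counts no share over all genes was computed.

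**Figure D2:**
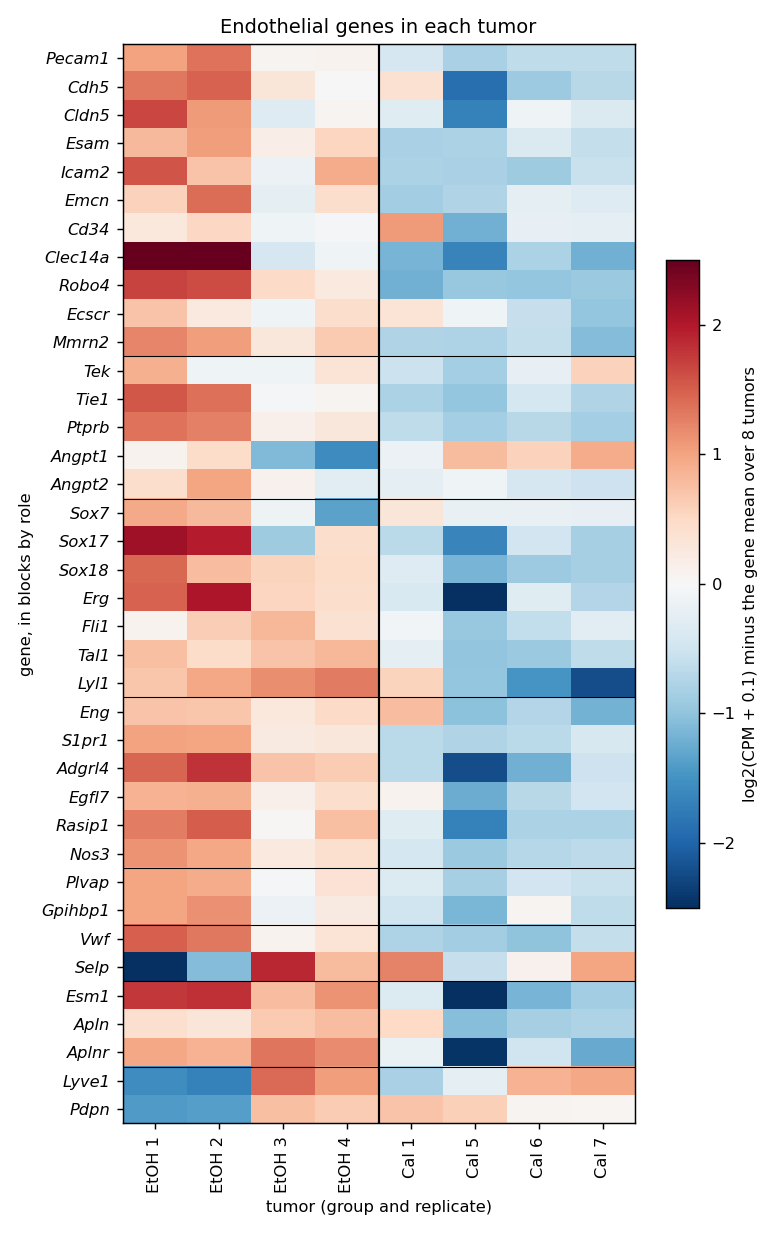
Log2(CPM + 0.1) of the 38 tested genes (rows, in blocks by role) in each of the 8 tumors (columns), relative to the mean of the gene. Blood-vessel genes are mostly above their mean in EtOH replicates 1 and 2, near or above it in EtOH replicates 3 and 4, and below it in the calcipotriol-treated tumors, while Lyve1 and Pdpn are lowest in EtOH replicates 1 and 2.

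Of the 11 junction and surface genes, 5 were lower past both thresholds and the other 6 also had fold changes below 0. Robo4, a roundabout receptor of endothelial cells (chromosome 9, 37401897 to 37415115 in GRCm38), was at 23.4, 22.3, 10 and 8.47 CPM in the EtOH-treated tumors and at 3.06, 3.65, 3.61 and 3.73 CPM in the calcipotriol-treated tumors. The groups did not overlap, and the calcipotriol-treated tumors lay close together. The means were 16.1 ± 7.91 CPM (SD, n = 4) and 3.51 ± 0.306 CPM (SD, n = 4), which gave a fitted log2 difference of -2.19 ± 0.35 (SE, edgeR adjusted p = 0.0134). Robo4 passed both thresholds in 17 of the 18 fits made, the exception being that without EtOH replicates 1 and 2 (log2 fold change -1.39, edgeR adjusted p = 0.0539). Clec14a, a C-type lectin-like surface protein of endothelial cells (chromosome 12, 58264720 to 58269290), was at 30.8, 25.2, 3.2 and 4.01 CPM with EtOH and at 1.87, 1.28, 2.45 and 1.82 CPM with calcipotriol. Its high values belong to EtOH replicates 1 and 2, and replicates 3 and 4 lie just above the calcipotriol-treated tumors. The log2 fold change was -3.09 ± 0.71 (SE, edgeR adjusted p = 0.0472) with all tumors and -0.95 (edgeR adjusted p = 0.276) without EtOH replicates 1 and 2. Mmrn2, a matrix protein that binds the CLEC14A protein, was at 13.0, 11.5, 6.76 and 8.73 CPM with EtOH and at 3.26, 3.2, 3.61 and 2.54 CPM with calcipotriol (log2 fold change -1.66 ± 0.28 SE, edgeR adjusted p = 0.0162). Its groups were apart in all tumors.

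Pecam1, the adhesion molecule CD31 (chromosome 11, 106654217 to 106750628), was at 72.5, 93.4, 37.9 and 38.6 CPM with EtOH and at 27.1, 20.6, 23.3 and 23.2 CPM with calcipotriol. All calcipotriol-treated tumors were lower, and the pairs of EtOH-treated tumors are apart by more than EtOH replicate 3 is from calcipotriol replicate 1. The log2 fold change was -1.36 ± 0.28 (SE, edgeR adjusted p = 0.033), or -0.70 without EtOH replicates 1 and 2 (edgeR adjusted p = 0.0695). Esam, an adhesion molecule of endothelial tight junctions, was at 22.8, 26.7, 14.6 and 18.8 CPM with EtOH and at 7.35, 7.49, 10.1 and 8.52 CPM with calcipotriol, without overlap (log2 fold change -1.31 ± 0.22 SE, edgeR adjusted p = 0.0161). Cdh5 overlapped between the groups, as calcipotriol replicate 1 (56.6 CPM) was above EtOH replicates 3 and 4 (53.6 and 42.7 CPM) and calcipotriol replicates 5, 6 and 7 were at 11.7, 23.1 and 26.6 CPM. EtOH replicates 1 and 2 were at 108 and 121 CPM, and the log2 fold change of Cdh5 was -1.46 ± 0.46 (SE, edgeR adjusted p = 0.126). Cldn5, Icam2, Emcn and Ecscr did not pass either, with log2 fold changes of -1.34, -1.71, -1.20 and -0.61, and Icam2 and Emcn did not overlap between the groups. Cd34, which is also made by stromal and blood progenitor cells, was at 33.4 to 51.6 CPM with EtOH and at 15.6 to 76.0 CPM with calcipotriol, the highest value being in calcipotriol replicate 1 (log2 fold change -0.09 ± 0.39 SE, edgeR adjusted p = 0.93).

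Of the 5 angiopoietin and Tie genes, Tie1 and Ptprb were lower past both thresholds, and Tek, Angpt1 and Angpt2 did not pass. Tie1, the partner receptor of TIE2, was at 36.8, 32.5, 12.2 and 13.1 CPM with EtOH and at 7.23, 6.35, 9.23 and 7.38 CPM with calcipotriol, without overlap. Its log2 fold change was -1.65 ± 0.36 (SE, edgeR adjusted p = 0.0424). Ptprb, the phosphatase VE-PTP that acts on TIE2 and VE-cadherin, was at 21.5, 20.1, 9.07 and 10.1 CPM with EtOH and at 5.28, 4.57, 5.1 and 4.54 CPM with calcipotriol. It did not overlap either, and its log2 fold change was -1.64 ± 0.31 (SE, edgeR adjusted p = 0.024). Tek, the gene of TIE2 itself, was at 5.3, 2.58, 2.59 and 3.57 CPM with EtOH and at 1.91, 1.51, 2.4 and 4.24 CPM with calcipotriol. The tumors overlapped, with calcipotriol replicate 7 above 3 of the EtOH-treated tumors, and the log2 fold change was -0.48 ± 0.44 (SE, edgeR adjusted p = 0.611).

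The angiopoietin ligands had fold changes of opposite sign. Angpt1 was at 24.4, 31.5, 10.6 and 7.67 CPM with EtOH and at 20.8, 40, 34.2 and 44.0 CPM with calcipotriol, with calcipotriol replicate 1 inside the range of the EtOH-treated tumors. Its fitted log2 fold change was 0.91 ± 0.41 (SE, edgeR adjusted p = 0.275), and 1.93 without EtOH replicates 1 and 2, where Angpt1 was higher past both thresholds (edgeR adjusted p = 0.033). Angpt2 was at 18.9, 27.4, 15 and 11.4 CPM with EtOH and at 11.9, 12.8, 10.4 and 9.71 CPM with calcipotriol (log2 fold change -0.70 ± 0.26 SE, edgeR adjusted p = 0.187). EtOH replicate 4 lay among the calcipotriol-treated tumors. Neither ligand passed alone with all tumors. Their ratio, reported here out of several that were computed, did not overlap between the groups. The share of other gene pairs without overlap was not computed. Per exon length, Angpt2 over Angpt1 was 1.09, 1.23, 2.0 and 2.1 in the EtOH-treated tumors and 0.805, 0.451, 0.43 and 0.311 in the calcipotriol-treated tumors. Angpt2 thus exceeded Angpt1 per length in each EtOH-treated tumor and was below it in each calcipotriol-treated tumor, which is a description without a test.

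**Figure D3:**
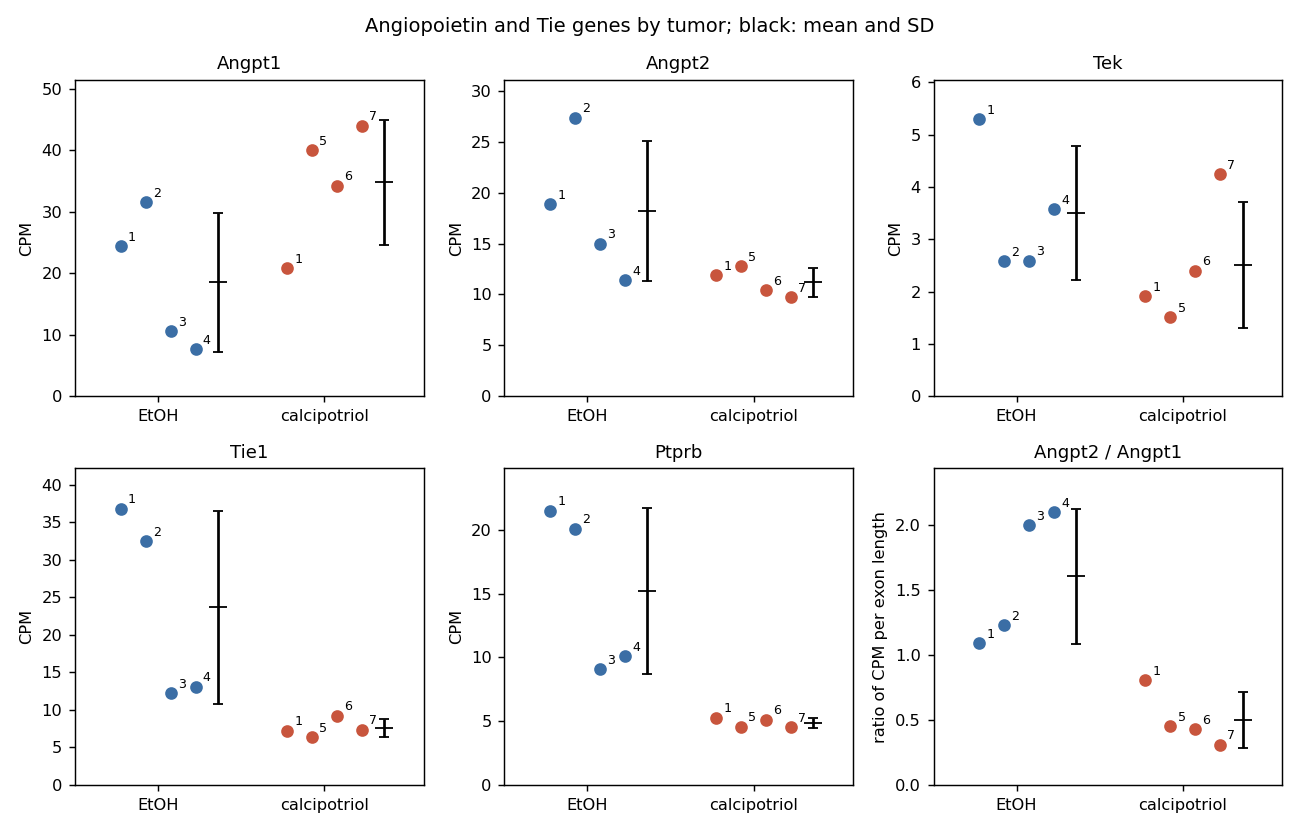
CPM of the angiopoietin ligands, the Tie receptors and Ptprb in each tumor, and the ratio of Angpt2 to Angpt1 per exon length (last panel). Points are tumors marked with their replicate number, and black bars are the mean and SD of a group. The ratio is 1.09 to 2.1 with EtOH and 0.311 to 0.805 with calcipotriol.

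Of the 7 transcription factor genes, Sox18 was lower past both thresholds and the other 6 had fold changes below 0 that did not pass. Sox18 was at 22.5, 14.1, 12.2 and 11.3 CPM with EtOH and at 6.56, 3.61, 4.37 and 4.58 CPM with calcipotriol, without overlap (log2 fold change -1.65 ± 0.29 SE, edgeR adjusted p = 0.0183). Of its relatives, Sox17 was at 6.86, 6.13, 0.77 and 2.07 CPM with EtOH and at 0.411 to 1.06 CPM with calcipotriol (log2 fold change -2.30 ± 0.68 SE, edgeR adjusted p = 0.105), with EtOH replicate 3 inside the calcipotriol range. Sox7 had a log2 fold change of -0.38 (edgeR adjusted p = 0.733) and of 0.59 without EtOH replicates 1 and 2. Differences between the SOX genes were not tested. Erg, the ETS factor of endothelial identity, was at 5.03 to 15.3 CPM with EtOH and at 0.365 to 2.98 CPM with calcipotriol (log2 fold change -2.11 ± 0.59 SE, edgeR adjusted p = 0.0858), and its groups did not overlap. Fli1, Tal1 and Lyl1, which blood cells make as well, had log2 fold changes of -0.95, -1.45 and -1.72 (edgeR adjusted p = 0.0859, 0.132 and 0.104) and did not overlap between the groups. These last 3 genes did not show the pairs of the EtOH-treated tumors in the way of Erg, and Lyl1 was at 13.8 and 16.7 CPM in EtOH replicates 1 and 2 and at 19.2 and 21.2 CPM in replicates 3 and 4.

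Of the 6 signaling genes, 4 were lower past both thresholds. Adgrl4, an adhesion G protein-coupled receptor of vessels, was at 20.4, 26.0, 12.1 and 11.4 CPM with EtOH and at 4.53, 1.51, 3.12 and 5.09 CPM with calcipotriol (log2 fold change -2.29 ± 0.40 SE, edgeR adjusted p = 0.0186). S1pr1, the receptor of sphingosine 1-phosphate that strengthens the endothelial barrier, was at 25.6, 25.3, 14.9 and 15.4 CPM with EtOH and at 7.91, 7.54, 7.98 and 9.62 CPM with calcipotriol (log2 fold change -1.30 ± 0.23 SE, edgeR adjusted p = 0.0186). In both genes the lowest EtOH-treated tumor stayed above the highest calcipotriol-treated tumor. Rasip1, a Ras-interacting protein needed for the vessel lumen whose promoter is printed above, was at 15.4, 18.2, 6.36 and 10.7 CPM with EtOH and at 5.05, 1.87, 3.56 and 3.6 CPM with calcipotriol (log2 fold change -1.84 ± 0.39 SE, edgeR adjusted p = 0.0353). Nos3, the endothelial nitric oxide synthase, was at 10.6, 9.49, 5.71 and 6.4 CPM with EtOH and at 3.5, 2.47, 2.88 and 3.01 CPM with calcipotriol (log2 fold change -1.44 ± 0.30 SE, edgeR adjusted p = 0.0327). Neither gene overlapped between the groups. Egfl7, a secreted protein of vessels, also did not overlap but missed the threshold (log2 fold change -1.13, edgeR adjusted p = 0.068). Eng, a coreceptor of the TGF-β family, was at 42.9 CPM in calcipotriol replicate 1, above each EtOH-treated tumor (30.1 to 41.4 CPM), and at 11.0 to 15.1 CPM in calcipotriol replicates 5, 6 and 7 (log2 fold change -0.86, edgeR adjusted p = 0.276).

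Of the genes of specialized vessels, Plvap and Vwf were lower past both thresholds, and Gpihbp1 and Selp did not pass. Plvap, which forms the diaphragms of fenestrae and caveolae, was at 116, 111, 56.5 and 75.1 CPM with EtOH and at 46.2, 33.0, 41.8 and 39.6 CPM with calcipotriol (log2 fold change -1.16 ± 0.22 SE, edgeR adjusted p = 0.0263), without overlap. Gpihbp1, which holds lipoprotein lipase on capillaries, had nearly the same fitted change but a larger spread (log2 fold change -1.15 ± 0.33 SE, edgeR adjusted p = 0.093). Vwf, the platelet-binding glycoprotein stored in endothelial granules, was at 59.5, 53.1, 22.4 and 26.9 CPM with EtOH and at 12.3, 11.5, 10.4 and 13.9 CPM with calcipotriol (log2 fold change -1.75 ± 0.30 SE, edgeR adjusted p = 0.0179). Each EtOH-treated tumor was higher than each calcipotriol-treated tumor, and Vwf was the gene of the list that was still lower past both thresholds without EtOH replicates 1 and 2. The selectins, by which activated endothelium captures leukocytes, were near the floor. Sele was not tested, since the EtOH-treated tumors held 0, 8, 5 and 9 counts of it and the calcipotriol-treated tumors 9, 0, 1 and 0. Selp was at 0 to 3.69 CPM with EtOH and at 0.594 to 2.34 CPM with calcipotriol (log2 fold change 0.03 ± 1.05 SE, edgeR adjusted p = 0.99).

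Esm1, the secreted proteoglycan endocan of tip cells at the front of sprouting vessels (chromosome 13, 113209659 to 113218098), was at 19.0, 19.6, 9.44 and 12 CPM with EtOH and at 4.33, 0.548, 2.4 and 2.97 CPM with calcipotriol. The groups did not overlap, and calcipotriol replicate 5 was the lowest tumor. The log2 fold change was -2.54 ± 0.51 (SE, edgeR adjusted p = 0.0291), a level at 17.2% of that with EtOH. Aplnr, the apelin receptor of venous and sprouting endothelium, did not overlap either, at 4.97 to 6.93 CPM with EtOH and 0.411 to 2.38 CPM with calcipotriol (log2 fold change -2.02 ± 0.49 SE, edgeR adjusted p = 0.0583). Its ligand Apln was at 44.3, 41.2, 52.7 and 57.4 CPM with EtOH and at 47.5, 16.0, 18.8 and 19.6 CPM with calcipotriol. Calcipotriol replicate 1 had the level of the EtOH-treated tumors, and without it Apln was lower past both thresholds, while with all tumors its log2 fold change was -0.94 (edgeR adjusted p = 0.148).

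No lymphatic gene passed the thresholds, and the values overlapped between the groups in all 3. Prox1 (chromosome 1, 190118035 to 190170714) was too low for a test, with 0, 0, 19 and 4 counts in the EtOH-treated tumors and 6, 0, 8 and 16 in those given calcipotriol. Tumors of both groups had 0 counts, for which 3 counts, or 0.12 to 0.152 CPM depending on the library, are the amount that could have been missed by counting error alone. Lyve1 was at 4.96, 4.48, 39.2 and 30.5 CPM with EtOH and at 8.3, 12.4, 26.8 and 28.9 CPM with calcipotriol. Its calcipotriol-treated tumors all lay between the pairs of EtOH-treated tumors, and the log2 fold change was -0.05 ± 0.68 (SE, edgeR adjusted p = 0.977). Pdpn was at 10.6, 10.9, 48.1 and 44.6 CPM with EtOH and at 46.8, 43.3, 30.1 and 29.5 CPM with calcipotriol (log2 fold change 0.39 ± 0.47 SE, edgeR adjusted p = 0.716). Here too EtOH replicates 1 and 2 were the lowest tumors and replicate 3 the highest. The direction of Lyve1 and Pdpn was set by the pair of EtOH-treated tumors in the fit. Without EtOH replicates 3 and 4 the log2 fold changes were 2.02 for Lyve1 (edgeR adjusted p = 0.0609) and 1.81 for Pdpn (edgeR adjusted p = 0.00744), and without EtOH replicates 1 and 2 they were -0.87 and -0.30. None of the 3 genes passed with edgeR, DESeq2 or limma-voom on all tumors, and neither of the tested ones reached an unadjusted p under 0.05. The median log2 fold change was 0.17 for the tested lymphatic genes and -1.40 for the blood-vessel genes, and the difference between the lists was not tested.

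**Figure D4:**
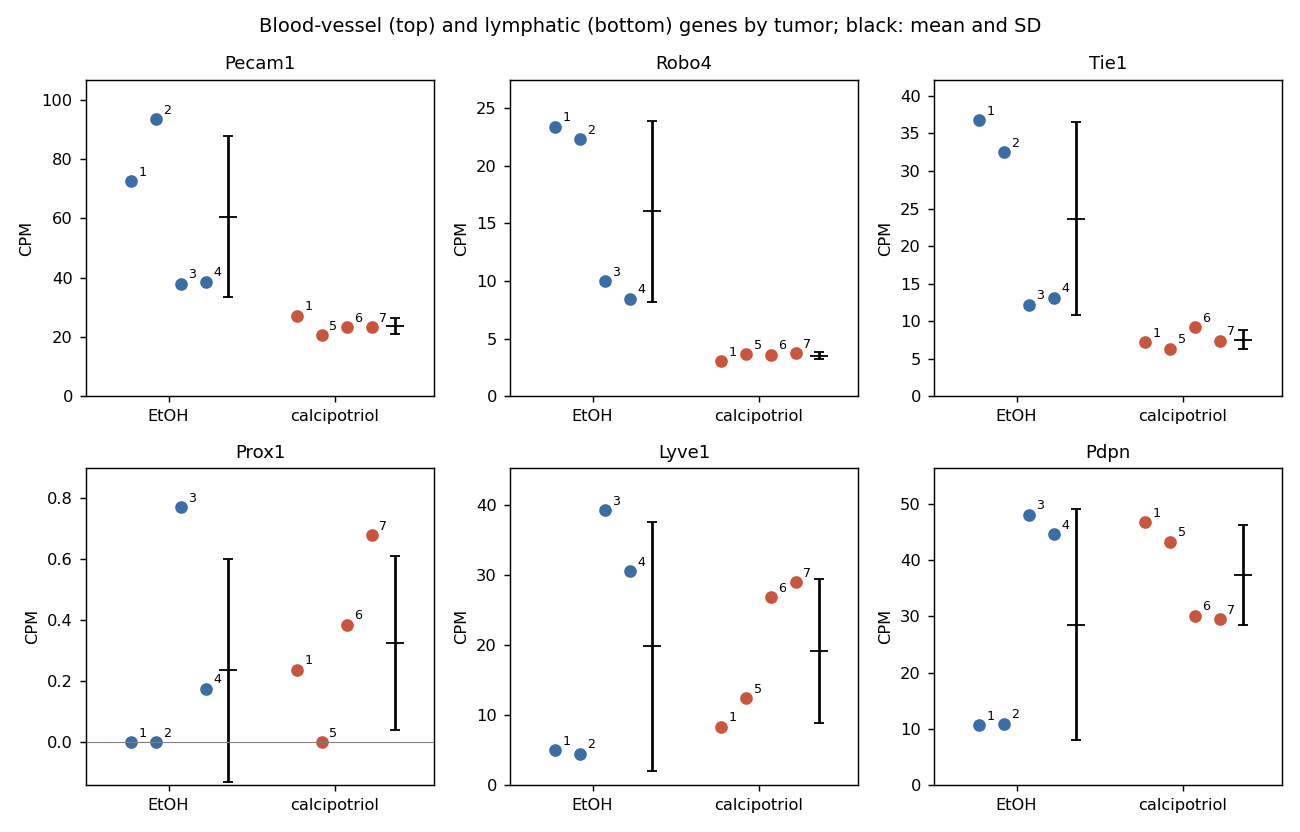
CPM in each tumor of Pecam1, Robo4 and Tie1 (top) and of the lymphatic genes Prox1, Lyve1 and Pdpn (bottom); points are tumors marked with their replicate number, and black bars are the mean and SD. The top genes are lower in each calcipotriol-treated tumor than in each EtOH-treated tumor, while Lyve1 and Pdpn of EtOH replicates 1 and 2 lie below all other tumors.

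Other genes of endothelium, from a list that shares no gene with the 40, held further genes that were lower. That list too was chosen with earlier results of these data known. Of 40 such genes 39 were tested, 8 were lower past both thresholds (0.948% of all genes) and 0 were higher with edgeR, DESeq2 or limma-voom (1 was higher at an unadjusted p under 0.05 in edgeR). The median log2 fold change was -0.94, and 33 of the 39 were below 0. The 8 genes were Kdr, the main receptor of vascular endothelial growth factor A, Cd93 and Mcam, which are adhesion proteins, Podxl, a sialomucin of the lumen, Dll4, the Notch ligand of tip cells, and She, Ushbp1 and Apold1. Kdr was at 15.3, 12.7, 15.7 and 12.7 CPM with EtOH and at 4.29, 3.65, 3.8 and 4.96 CPM with calcipotriol. It showed none of the pairing of the EtOH-treated tumors and was the gene of this list that stayed past both thresholds without EtOH replicates 1 and 2. Of 9 other genes of lymphatic vessels or their growth 0 passed with edgeR, at a median log2 fold change of -0.13, and 2 were lower at an unadjusted p under 0.05. limma-voom called 0 and DESeq2 called Flt4, the receptor of VEGF-C, which blood-vessel endothelium of tumors also makes (log2 fold change -1.32, edgeR adjusted p = 0.126). Ccl21a, a chemokine of lymphatic endothelium, was at 0.778, 0.584, 4.94 and 4.19 CPM with EtOH and at 2.62, 3.38, 6.15 and 4.87 CPM with calcipotriol, so that EtOH replicates 1 and 2 were again the lowest tumors.

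Markers of other cells moved with the groups as well. Of 10 mural genes, which mark the pericytes and smooth muscle around vessels, Rgs5 was lower past both thresholds (86.0, 111, 43.1 and 41.6 CPM with EtOH and 11.0, 4.25, 15.2 and 16.1 CPM with calcipotriol). The median log2 fold change of the mural genes was -1.21, with 9 of the 10 below 0, 7 at or below -1 and 6 lower at an unadjusted p under 0.05 in edgeR. Without EtOH replicates 1 and 2, 0 mural genes were lower past both thresholds and Notch3 was higher. The summed level of the list overlapped, at 442 to 882 CPM with EtOH and 342 to 535 CPM with calcipotriol, and EtOH replicates 1 and 2 were the highest tumors. Most of that sum was Pdgfrb, at a mean of 470 CPM with EtOH and 387 CPM with calcipotriol (log2 fold change -0.28). Of 11 erythroid genes 7 were tested and 5 were lower, and their sum was 3461 to 5840 CPM with EtOH and 436 to 821 CPM with calcipotriol. Gata1 was at 0 counts in 5 tumors and Klf1 in 4. Of 10 macrophage genes, Csf1r and Adgre1 were lower and Cd163 was higher past both thresholds. Csf1r and Adgre1 did not overlap between the groups. In the 7 fits without an EtOH-treated tumor or calcipotriol replicate 5, 6 or 7, each with fewer samples, 0 macrophage genes were lower. Of all genes, 0.291% to 0.78% were lower in these fits. Without calcipotriol replicate 1, 6 macrophage genes were lower (2.7% of all genes). Cd163 did not pass in 5 of these 8 fits. The macrophage sum was 2184 to 2654 CPM with EtOH, 1946 CPM in calcipotriol replicate 1 and 1108 to 1264 CPM in calcipotriol replicates 5, 6 and 7. Of 9 platelet and megakaryocyte genes 5 were tested and 0 passed with edgeR (1 was higher at an unadjusted p under 0.05), with sums of 19.8 to 61.8 CPM and 29.9 to 46.9 CPM. The epithelial sum was 1012 to 1322 CPM with EtOH and 593 to 891 CPM with calcipotriol, without overlap. Most of it was Krt8 and Krt18, at means of 593 and 558 CPM with EtOH and 369 and 293 CPM with calcipotriol. The median log2 fold change of the 6 tested epithelial genes was 0.42. Krt18 had a log2 fold change of -0.93 ± 0.16 SE (edgeR adjusted p = 0.0162), short of the fold change minimum, and Krt8 of -0.69 ± 0.20 SE (edgeR adjusted p = 0.0966), while Epcam, Krt19, Cdh1 and Elf3 had fold changes above 0 and did not pass. How the mural and epithelial values bear on the endothelial genes was not tested. The part of blood cells and macrophages in the listed genes was not tested, including the shared Fli1, Tal1, Lyl1, Eng, Cd34, Selp and Lyve1. Sums over the 37 blood-vessel genes were 985, 1022, 547 and 598 CPM with EtOH and 492, 265, 342 and 343 CPM with calcipotriol, with calcipotriol replicate 1 nearest to the EtOH-treated tumors.

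**Figure D5:**
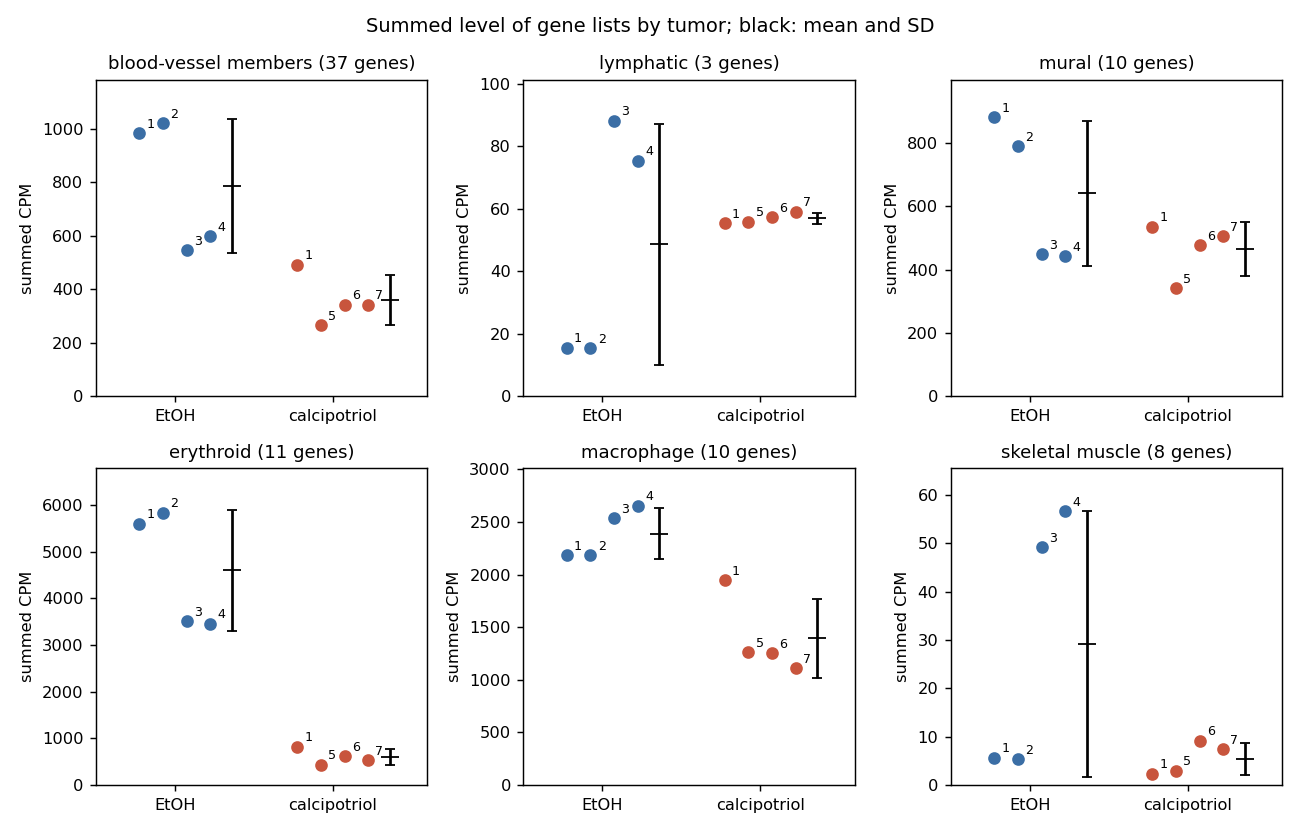
Summed CPM of 6 gene lists in each tumor, with points marked by replicate number and black bars for the mean and SD. Blood-vessel, erythroid and macrophage sums are lower in each calcipotriol-treated tumor than in each EtOH-treated tumor, lymphatic and mural sums overlap, and skeletal muscle genes are high in EtOH replicates 3 and 4.

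Within a group the genes of the list ranked the tumors unevenly. EtOH replicate 1 had the highest EtOH value for 17 of the 36 tested blood-vessel genes and replicate 2 for 13, whereas replicates 3 and 4 had it for 3 each, and replicate 3 had the lowest for 21. Among the calcipotriol-treated tumors, replicate 1 had the highest value for 19 genes and replicate 5 the lowest for 23. Levels of different genes were compared per kilobase of exon. In the EtOH-treated tumors Plvap led with 45.1 CPM per kilobase (range 28.5 to 58.1), followed by Cdh5 (19.4, range 10.2 to 28.8), Pdpn (15.7, range 5.81 to 26.5) and Apln (15.5, range 13.1 to 18.2), whose ranges overlap with that of the next gene. Tal1 (0.52), Selp (0.326), Sele (0.0849) and Prox1 (0.0282) were the lowest in mean CPM per kilobase. With calcipotriol Pdpn (20.6) and Plvap (20.2) were level, and Angpt1 went from rank 22 to rank 5. The genes lie on 18 chromosomes, and 3 pairs are within 500 kb of each other: Robo4 and Esam on chromosome 9 (113.0 kb apart), both lower, Icam2 and Pecam1 on chromosome 11 (266.1 kb), of which Pecam1 passed, and Sele and Selp on chromosome 1 (57.6 kb), neither of which passed.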

How the data were processed

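The authors deposited 1 table of expected counts (estimated counts, written with decimals) per Ensembl gene, made from their reads before deposit and not scaled across its columns, each of which is 1 tumor. Per column, 4.2% to 6.22% of entries had a fractional part. The submitters' processing notes name STAR 2.5.3, RSEM 1.3.1, DESeq2 1.24.0 and the build GRCm38, with no role or order. The annotation is not given in the sources used here. The table has 0 columns of other samples. Tumors were grouped by the treatment in their labels, with replicate numbers from their titles (EtOH 1, 2, 3 and 4, calcipotriol 1, 5, 6 and 7). The methods describe the 4 tumors of a group as biological replicates.

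Values were rounded to whole counts, since tests had been planned for counts. Symbols and positions came from GENCODE M21 (52081 of 55414 identifiers matched), and CPM per kilobase used the union of the exons of a gene. The comparison used edgeR 4.0.16 under R 4.3.3 (filterByExpr, TMM, glmQLFit, glmQLFTest, no covariates), and the standard error is the log2 fold change over the root of the F statistic. The thresholds are those of the study's methods, which name limma. The floor of 3 counts covers counting error only, as PCR copies are not separate molecules. The p-values set the difference between the groups against the spread between these tumors, and the model held no term for the pairs of EtOH-treated tumors. Alternatives were RLE, upper-quartile or no scaling factors, no filter on low counts, at least 10 counts in every tumor, DESeq2 1.42.0, limma-voom (limma 3.58.1), no fold change minimum, each tumor left out in turn, and each pair of EtOH-treated tumors left out. The scripts were tested on simulated data. All genes of the list were accounted for. Values in every tumor were given for genes past both thresholds and for the lymphatic, angiopoietin and Tie genes, and for some others after their values were seen. The genes and lists were chosen with earlier results of these data known. Other marker lists covered fibroblasts (9 genes, 0 past both thresholds), epithelium (8, 0), skeletal muscle (8, 0), T cells (8, 0) and adipocytes (8). Of the adipocyte list Fabp4, also made by capillary endothelium, was lower. Of these lists the muscle and epithelial values are described, with sums only for adipocytes, and the sum, Col3a1 and Col1a1 for fibroblasts. Sequences came from RefSeq (GRCm38.p6).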

Additional observations from a re-analysis of the deposited data

Results flagged for a closer look

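Dixon's criterion for 4 values (the gap of the extreme tumor over the range) was applied to log2(CPM + 0.1) of the tumors within each treatment. It was met by 3 of the 76 groups examined (38 tested genes in each treatment), where chance gives about 3.8. Cldn5 in calcipotriol replicate 5 was at 3.52 CPM, against 8.94 to 10.7 CPM in replicates 1, 6 and 7. Sox7 in calcipotriol replicate 1 was at 4.21 CPM, against 2.92 to 2.98 CPM. Erg in calcipotriol replicate 5 was at 0.365 CPM, against 2.2 to 2.98 CPM.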

How the results depend on the processing

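No paired analysis was made, as the labels record no pairing of tumors between the groups. Of all genes, 292 passed both thresholds, 458 without the filter on low counts, 644 with DESeq2, 177 without EtOH replicates 1 and 2, 604 without EtOH replicates 3 and 4, and 113 to 642 with each tumor left out. Of the 40 endothelial genes, 15 were lower, 25 with DESeq2, 1 and 24 without EtOH replicates 1 and 2 or 3 and 4, and 3 to 21 with each tumor left out. Higher were 0, but 1 without EtOH replicates 1 and 2 (Angpt1) and 1 without EtOH replicates 3 and 4 (Pdpn). Of the other endothelial list, 8 were lower, 14 with DESeq2, 5 with limma-voom, 1 and 13 without these pairs, and 3 to 12 with each tumor left out, and 1 (Ackr1) was higher without EtOH replicates 3 and 4. Of the other lymphatic list 0 passed, 1 with DESeq2 (Flt4), 2 without EtOH replicates 3 and 4 (Flt4 lower and Ccl21a higher), and 0 to 1 with each tumor left out (Vegfd without calcipotriol replicate 1). The median log2 fold change of the blood-vessel genes was -1.40, -0.92 and -1.69 without the pairs, and -1.55 to -1.23 with each tumor left out. That of the lymphatic genes was 0.17, -0.54 and 1.91 without the pairs, and -0.13 to 0.64 with each tumor left out. Signs turned for genes that did not pass: Cd34 to 0.00 with library totals and 0.17 without EtOH replicates 1 and 2 (-0.66 to 0.17 with each tumor left out), Lyve1 to 0.03 with library totals, 0.29 with limma-voom and 2.02 without EtOH replicates 3 and 4 (-0.38 to 0.52), Selp to -0.86 without EtOH replicates 1 and 2 (-0.38 to 1.09), and Sox7 (0.59) and Pdpn (-0.30) without EtOH replicates 1 and 2. The cause of these changes was not tested, and fits with fewer tumors have fewer samples. Library totals in place of TMM moved the median of all genes from 0.019 to 0.102. Genes of few counts (Sele, Prox1 and Selp) are limited by depth.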
